A study of Mus musculus with 12 samples.

Results

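The interaction of oxaliplatin (Oxali) with high-dose interferon γ (IFNγ) asks, gene by gene, whether the response to IFNγ differed when the drug was present. On the log2 scale it is the change from Oxali to Combo2000 minus the change from Ctrl to IFN2000. A positive value is a larger rise, or a smaller fall, with Oxali present. The same difference was also taken in CPM (read counts brought to the same total in every library), as the CPM gained with IFNγ in the presence of Oxali minus the CPM gained without it. The contrast uses 8 of the 12 RNA-seq libraries, and 13177 of the 55216 genes in the table passed the filter on low counts.

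All groups are Myc-CaP cells, an established prostate cancer line from FVB/NJ mice that overexpresses Myc, collected 48 h after treatment began. Ctrl cells received neither agent, IFN2000 cells received IFNγ at 2000 pg (the labels give no volume), Oxali cells received the drug at 2 μM, and Combo2000 cells received both. Each group has 2 libraries of poly(A) RNA made with a stranded kit, and the sources used here do not state whether they came from separate cultures, so p-values measure the spread between libraries. The other 4 libraries, IFN200 and Combo200 with IFNγ at 200 pg, entered the shared estimate of spread and the comparison of doses.

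Groups follow the library titles, which a separate agent label contradicts for the single treatments. Libraries titled IFN200 carry the agent Oxali, those titled IFN2000 carry IFNγ at 200 pg, and those titled Oxali carry IFNγ at 2000 pg. Under the titles, Gbp2, a GTPase induced by IFNγ, measured 30.6 and 30.8 CPM in IFN2000, beside 3.36 and 2.86 in Oxali, 3.30 and 2.25 in IFN200 and 1.00 and 0.912 in Ctrl. Cdkn1a, the p53 target that encodes p21, ranged from 24.03 to 30.3 CPM over the libraries titled Ctrl, IFN200 and IFN2000 and measured 51.04 and 48.1 in those titled Oxali. Gbp2 was thus highest in the libraries titled IFN2000 and Cdkn1a in those titled Oxali. Every direction given here rests on the titles.

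IFNγ binds the receptor chains IFNGR1 and IFNGR2, which activate the kinases JAK1 and JAK2. The kinases activate transcription factors that bind gamma-activated sites (GAS) and switch on early targets such as the transcription factor IRF1, and IRF1 in turn acts on further promoters through interferon regulatory factor sites. The targets include the major histocompatibility complex class I (MHC-I) pathway, GTPases that restrict intracellular microbes, chemokines and PD-L1. Oxaliplatin is a platinum drug that crosslinks DNA and also disturbs ribosome biogenesis.

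Library totals ran from 18749975 to 25931516 counts, so that 3 counts, the limit that a count of 0 allows, correspond to 0.111 to 0.167 CPM, covering counting error only. Of the epithelial and line markers, Foxa1, Hoxb13, Krt8 and Myc were detected in every library, and Epcam, an epithelial adhesion protein, and Pbsn, a secretory product of the mouse prostate, had 0 counts in all 12. Library IFN2000 replicate 2 stood apart by 498 counts over 14 T cell markers, 11 of them above 3 counts, with Gzmb at 175 and Ifng itself at 117, against sums of 13 to 117 counts in the other 11 libraries. Ptprc, the leukocyte antigen CD45, had 64 counts there and 0 to 2 elsewhere. The counts of calls and the leading genes for which that library set the value are given with and without it. The next highest sum, 117, was that of Combo200 replicate 3, with Gzmb at 7 counts and Ifng at 9. Apart from IFN2000 replicate 2, libraries without Oxali summed to 13 to 26 counts. Those with Oxali summed to 62 to 117, mostly from Lck, Cd28 and Trac.

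The interaction was called higher for 280 genes, 2.12% of those tested, and lower for 79, 0.600% of them, by the quasi-likelihood test of edgeR at a Benjamini-Hochberg adjusted p under 0.05. The interaction reached at least 1 on the log2 scale for 30 of the genes called higher and at most −1 for 7 of those called lower. Median interactions were 0.39 among genes called higher, −0.33 among those called lower and 0.01 over all genes tested. The weakest call was Lypla1, with an adjusted p of 0.0491, and the nearest gene outside was Mdm2, with 0.0504. The smallest p that an exact permutation of 2 against 2 libraries allows is 0.333, and the calls therefore depend on a spread estimated over all genes.

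These counts moved with single libraries. Without IFN2000 replicate 3 there were 636 genes called higher and 399 lower, and without IFN2000 replicate 2 there were 159 and 39. Leaving out Ctrl replicate 1 gave 90 and 12, Ctrl replicate 2 gave 122 and 29, Oxali replicate 1 gave 170 and 24, and Oxali replicate 2 gave 152 and 38. Leaving out Combo2000 replicate 2 gave 143 and 12, Combo200 replicate 3 gave 179 and 39, while Combo200 replicate 2 and Combo2000 replicate 3 took the genes called lower to 37 and 42.

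Mpeg1 encodes perforin-2, a pore-forming protein that acts on engulfed bacteria and is best known from macrophages. It stood at 3.12 and 2.99 CPM in Ctrl, 10.1 and 10.3 in IFN2000, 2.49 and 2.48 in Oxali, and 51.9 and 54.4 in Combo2000. The Combo2000 libraries lay far above all others, and Oxali alone was not above Ctrl. IFNγ raised Mpeg1 3.33-fold without the drug and 21.3-fold with it, a log2 interaction of 2.68 (SE 0.26, edgeR adjusted p = 2.53e-06) and 43.5 CPM on the linear scale (SE 2.08).

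Il18bp encodes the secreted protein that binds and neutralises interleukin 18. Its levels were 1.39 and 2.03 CPM in Ctrl, 3.43 and 3.48 in IFN2000, 1.24 and 0.668 in Oxali, and 11.1 and 11.5 in Combo2000. The order was that of Mpeg1, with both Oxali libraries below both Ctrl libraries. The IFNγ effect was 2.00-fold alone and 11.7-fold with Oxali, a log2 interaction of 2.55 (SE 0.33, edgeR adjusted p = 9.11e-05).

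Xdh encodes xanthine dehydrogenase, the last enzyme of purine breakdown to uric acid. It measured 4.17 and 4.26 CPM in Ctrl, 3.30 and 3.35 in IFN2000, 5.85 and 4.10 in Oxali, and 17.97 and 20.4 in Combo2000. IFNγ alone did not raise it, and the change to 0.788-fold missed the threshold (log2 −0.34, edgeR adjusted p = 0.221), whereas with Oxali it rose 3.83-fold. The log2 interaction was 2.28 (SE 0.22, edgeR adjusted p = 2.53e-06) and the linear one 15.03 CPM.

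Irf8 encodes a transcription factor of the interferon regulatory family that directs myeloid development. It was low throughout, at 0.668 and 0.456 CPM in Ctrl, 1.84 and 0.893 in IFN2000, 0.829 and 0.477 in Oxali, and 7.48 and 7.93 in Combo2000. The higher IFN2000 value belongs to the library with the most T cell reads. On the log2 scale the interaction was 2.25 (SE 0.54, edgeR adjusted p = 0.0287), and it was 2.86 (adjusted p = 0.00353) without that library and 1.81 (adjusted p = 0.0212) without the other IFN2000 library. The call was lost in 10 of 21 alternatives, 9 of them the removal of another single library, with estimates of 1.91 to 2.49 and adjusted p from 0.0501 to 0.306.

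**Figure D1:**
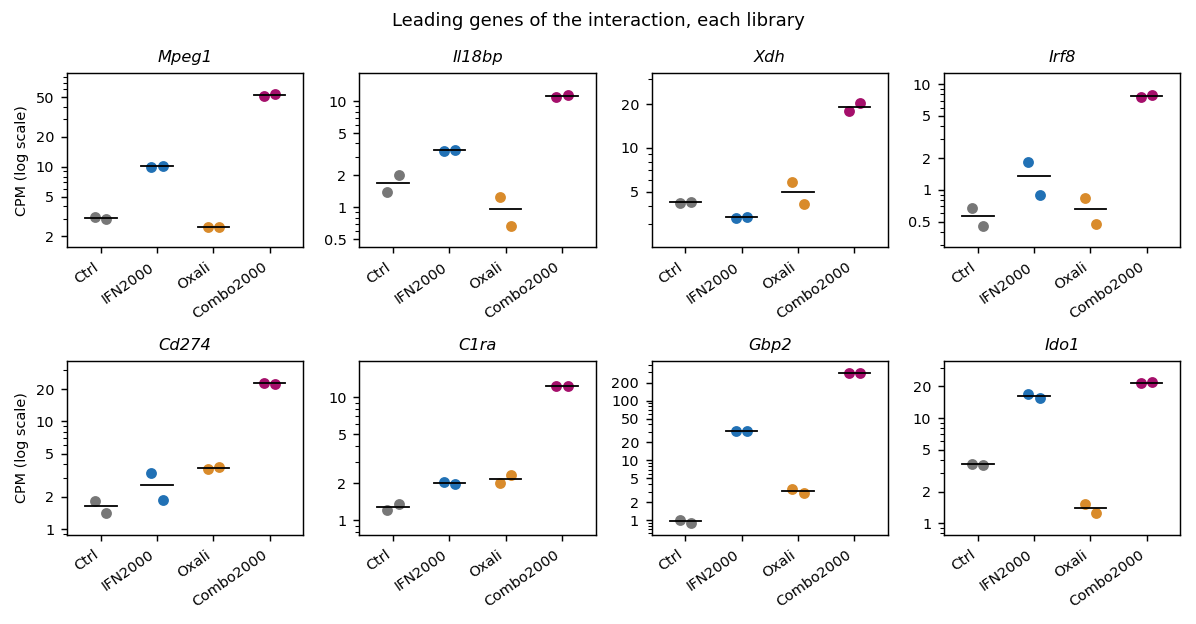
Levels of 8 genes (CPM, log axis) in each library of Ctrl, IFN2000, Oxali and Combo2000, with points for libraries and lines for group means. In each panel both Combo2000 libraries lie above the 6 others, as for Mpeg1 at 51.9 and 54.4 CPM against 2.48 to 10.3.

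Mpeg1 and Irf8 are also macrophage genes, and the macrophage markers were read in every library. Adgre1, Itgam, C1qa and C1qc had 0 counts in all 12 libraries, and Tyrobp had 1 count in 1 library. The 16 markers summed to 12.8 to 19.2 CPM in every group, and most of that was Cd14, at 225 to 409 counts per library. Csf1r, the receptor for macrophage colony-stimulating factor, had 0 counts in the libraries without Oxali and 8 to 19 counts in those with it. Lyz2, another of the markers, had 0 or 1 counts in the libraries without Oxali and 3 to 11 in those with it. The sum of the 16 markers was 17.1 and 18.5 CPM in Combo2000 and 16.6 and 17.5 in Oxali. Because most of it is Cd14, that sum could not show a small number of macrophages. Mpeg1 rose 21.3-fold between those groups, and whether macrophages added to it was not tested.

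Other genes with large interactions were raised by IFNγ mainly or only with the drug. Cd274 encodes PD-L1, the ligand of the inhibitory T cell receptor PD-1, and stood at 1.84 and 1.42 CPM in Ctrl, 3.30 and 1.88 in IFN2000, 3.64 and 3.82 in Oxali, and 23.01 and 22.3 in Combo2000. The Combo2000 values do not approach those of any other group, and the IFN2000 values reach down to Ctrl. The rise passed the test with Oxali and missed it without (adjusted p = 0.0603), and the log2 interaction was 1.92 (SE 0.30, edgeR adjusted p = 0.000828). Without IFN2000 replicate 2 the log2 interaction was 2.39, without IFN2000 replicate 3 it was 1.56, and without Ctrl replicate 1 it was 1.72 and no longer called (adjusted p = 0.0611).

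C1ra encodes a protease that starts the classical complement cascade. Its levels were 1.22 and 1.37 CPM in Ctrl, 2.06 and 1.964 in IFN2000, 2.03 and 2.34 in Oxali, and 12.3 and 12.4 in Combo2000, a log2 interaction of 1.87 (SE 0.27, edgeR adjusted p = 0.000354). Of these 4 groups Combo2000 lies far above the rest and Ctrl below. Parp11, a mono-ADP-ribosyltransferase, had 1.95 and 1.93 CPM in Ctrl, 2.01 and 2.37 in IFN2000, 3.27 and 3.53 in Oxali, and 9.41 and 8.49 in Combo2000, a log2 interaction of 1.22 (SE 0.24, edgeR adjusted p = 0.00765). Its call was lost without either Ctrl library (adjusted p = 0.0639 without replicate 1 and 0.0565 without replicate 2).

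In Ido1 and Ly6a, as in Il18bp, Oxali alone left the level below Ctrl. Ido1 encodes indoleamine 2,3-dioxygenase, which degrades tryptophan, and measured 3.67 and 3.598 CPM in Ctrl, 17.1 and 15.4 in IFN2000, 1.52 and 1.24 in Oxali, and 21.6 and 22.1 in Combo2000. Its end level in Combo2000 was little above that in IFN2000, and the log2 interaction of 1.81 (SE 0.20, edgeR adjusted p = 1.67e-05) was 7.76 CPM on the linear scale. Ly6a, the cell surface protein Sca-1, measured 132 and 123 CPM in Ctrl, 176 and 171 in IFN2000, 24.1 and 23.7 in Oxali, and 79.2 and 87.6 in Combo2000. Here the combination stayed below Ctrl. The log2 interaction was 1.36 (SE 0.08, edgeR adjusted p = 1.31e-09), but IFNγ added 45.9 CPM without the drug and 59.4 with it, a linear difference of 13.5 CPM (SE 5.29) that was not called (adjusted p = 0.166).

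The 250 bases before the RefSeq start (mouse build GRCm38.p6) are shown for 9 of these genes and of the interferon-responsive genes described further on, to let a reader see which hold the letters known from interferon-responsive promoters, and for Mxd4, a gene that fell with IFN2000 alone. Capitals mark matches on either strand to GAS (TTCNNNGAA) or to an interferon regulatory factor pair (GAAANNGAA, called the IRF pair). Of the genes with the largest positive interactions, Xdh, Ido1, Ly6a and Parp14 have no entry. The windows lie at chr19:12460520-12460769 (Mpeg1, plus strand), chr7:102018233-102018482 (Il18bp, minus), chr8:120736108-120736357 (Irf8, plus), chr19:29367188-29367437 (Cd274, plus), chr6:124512371-124512620 (C1ra, plus), chr3:142620413-142620662 (Gbp2, plus), chr6:127446590-127446839 (Parp11, plus), chr11:48871421-48871670 (Irgm1, minus), chr11:53769764-53770013 (Irf1, plus) and chr5:34187711-34187960 (Mxd4, minus). Irf8, Parp11 and Irf1 have a further RefSeq start that is not shown.
Mpeg1: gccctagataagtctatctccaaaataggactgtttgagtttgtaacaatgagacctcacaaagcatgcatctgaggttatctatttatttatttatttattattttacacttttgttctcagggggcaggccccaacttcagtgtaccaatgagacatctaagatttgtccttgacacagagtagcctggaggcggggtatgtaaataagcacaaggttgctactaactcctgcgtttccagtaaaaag
Il18bp: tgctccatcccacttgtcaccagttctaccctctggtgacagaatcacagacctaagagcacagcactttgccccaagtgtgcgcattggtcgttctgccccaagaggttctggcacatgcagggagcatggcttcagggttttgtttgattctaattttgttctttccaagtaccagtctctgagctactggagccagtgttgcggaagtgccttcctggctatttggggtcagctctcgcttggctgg
Irf8: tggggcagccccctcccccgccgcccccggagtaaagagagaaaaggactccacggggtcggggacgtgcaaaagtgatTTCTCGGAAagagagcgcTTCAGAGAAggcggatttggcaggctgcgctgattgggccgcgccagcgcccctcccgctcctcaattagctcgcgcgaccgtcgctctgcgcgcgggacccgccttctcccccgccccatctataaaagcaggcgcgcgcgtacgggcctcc
Cd274: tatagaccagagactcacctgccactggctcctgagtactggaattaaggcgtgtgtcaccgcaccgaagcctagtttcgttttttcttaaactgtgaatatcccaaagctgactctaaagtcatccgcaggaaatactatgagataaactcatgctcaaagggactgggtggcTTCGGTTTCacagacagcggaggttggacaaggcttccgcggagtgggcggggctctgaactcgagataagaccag
C1ra: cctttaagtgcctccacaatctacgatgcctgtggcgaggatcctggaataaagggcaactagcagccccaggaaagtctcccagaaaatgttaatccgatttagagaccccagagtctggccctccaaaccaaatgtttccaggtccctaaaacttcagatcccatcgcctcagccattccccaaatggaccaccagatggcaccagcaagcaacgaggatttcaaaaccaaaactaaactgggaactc
Gbp2: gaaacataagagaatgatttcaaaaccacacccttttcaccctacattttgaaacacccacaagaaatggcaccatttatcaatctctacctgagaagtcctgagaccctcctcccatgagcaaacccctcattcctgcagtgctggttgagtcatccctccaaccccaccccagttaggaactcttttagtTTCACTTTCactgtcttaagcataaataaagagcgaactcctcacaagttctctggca
Parp11: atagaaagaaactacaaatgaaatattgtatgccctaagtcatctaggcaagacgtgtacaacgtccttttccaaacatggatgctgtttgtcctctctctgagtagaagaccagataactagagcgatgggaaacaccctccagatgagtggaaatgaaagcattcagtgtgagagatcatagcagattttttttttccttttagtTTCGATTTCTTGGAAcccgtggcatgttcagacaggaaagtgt
Irgm1: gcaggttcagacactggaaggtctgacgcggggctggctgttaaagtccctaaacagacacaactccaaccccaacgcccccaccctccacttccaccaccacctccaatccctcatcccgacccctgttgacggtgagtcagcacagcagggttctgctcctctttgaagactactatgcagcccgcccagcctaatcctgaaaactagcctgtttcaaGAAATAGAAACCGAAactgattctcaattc
Irf1: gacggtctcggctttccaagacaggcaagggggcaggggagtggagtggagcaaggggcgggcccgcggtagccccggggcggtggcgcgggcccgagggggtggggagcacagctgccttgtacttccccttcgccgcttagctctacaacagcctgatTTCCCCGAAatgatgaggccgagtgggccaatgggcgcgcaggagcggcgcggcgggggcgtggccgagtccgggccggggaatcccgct
Mxd4: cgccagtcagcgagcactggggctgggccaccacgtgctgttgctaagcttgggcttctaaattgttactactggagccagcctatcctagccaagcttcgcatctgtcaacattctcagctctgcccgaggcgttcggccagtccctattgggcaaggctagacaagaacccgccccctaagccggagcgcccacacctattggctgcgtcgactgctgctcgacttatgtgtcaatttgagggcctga

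In these windows Irf8 held GAS matches starting 171 and 153 bases before the start, and Irf1 held a GAS match 90 bases before it. Cd274 held the IRF pair 76 bases before its start and Gbp2 held it 58 bases before. Parp11 held the pair 43 bases and a GAS match 37 bases before its start, which overlap, and Irgm1 held overlapping pairs 30 and 24 bases before. Mpeg1, Il18bp, C1ra and Mxd4 held neither in the bases printed, which says only that these letters are not in those bases. C1ra has a GAS match 32 bases after its start, beyond the bases printed.

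Over all 300-base windows, which also take in the first 50 bases after the start, the IRF pair was found in 8.47% of the 9596 genes tested that have an entry. The share was 33.7% among the genes called higher that IFNγ raised in the presence of Oxali (31 of 92 with an entry), 11% among those called higher that fell with IFN2000 alone (15 of 136), and 10.6% among those called lower (7 of 66). It was 24.2% among genes that IFNγ raised with Oxali but whose interaction was not called (60 of 248). GAS letters were found in 8.46% of all genes and in 18.5%, 13.2%, 4.55% and 12.9% of the same groups. The NF-κB consensus was found in 12.3% of all genes and in 20.7%, 14%, 12.1% and 15.7% of them, and AP-1 letters (TGANTCA) in 6.27% of all genes and in 14.1%, 11%, 6.06% and 12.9%. These shares describe letters in a sequence, not binding, and the groups were chosen by the values measured here.

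The 280 genes called higher were of different kinds. IFNγ raised 114 of them in the presence of Oxali: 45 also rose without the drug, 60 rose only with it, and 9 fell without it. Another 163 fell with IFN2000 alone and did not rise with Oxali, 155 of them called only without the drug and 8 called in both. For the remaining 3 neither simple effect was called. These simple effects are part of the contrast and describe the calls rather than test them. Among all genes, IFN2000 against Ctrl was called for 16.9% and Combo2000 against Oxali for 4.36%.

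**Figure D2:**
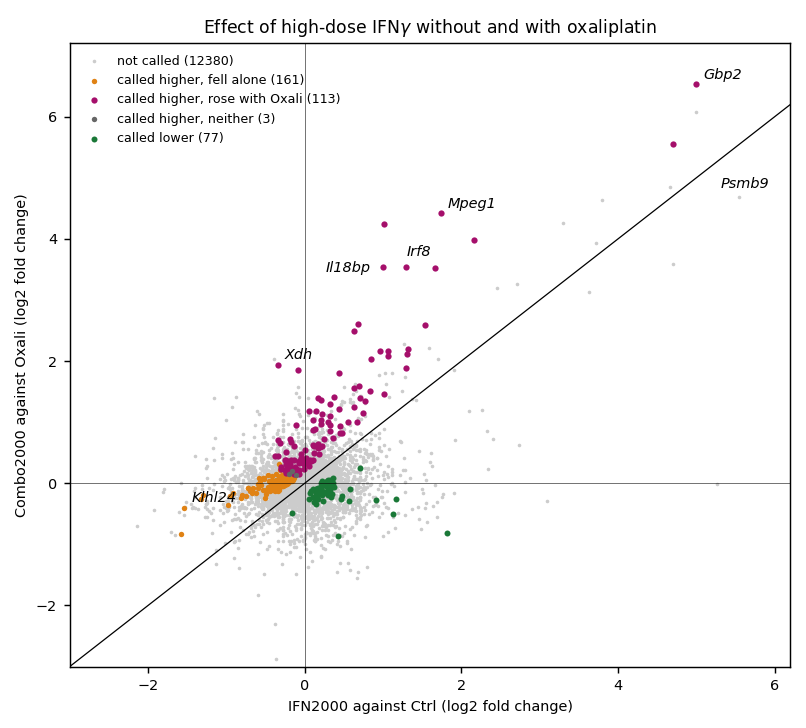
Log2 effect of IFN2000 against Ctrl (x axis) and of Combo2000 against Oxali (y axis) for 12734 genes, with 443 genes that have a group at the floor left out; the diagonal is an interaction of 0. The 113 plotted genes called higher that rose with Oxali spread above the diagonal to the top of the plot, the 161 that fell alone lie close to 0 on the y axis and left of 0 on the x axis, and the 77 called lower lie below the diagonal.

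In the 114 genes raised with Oxali the median log2 effect of IFNγ was 0.10 without the drug and 0.69 with it, and the linear interaction was also called higher for 111 of them. In the 163 that fell alone the medians were −0.32 without the drug and 0.01 with it, so that their interaction is a fall that was seen without Oxali. In the 79 genes called lower the medians were 0.27 and −0.09, and 66 of them rose only without the drug.

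The interaction was called neither for the receptor chains nor for their kinases. Ifngr1 measured 34.7 and 37.4 CPM in Ctrl, 37.7 and 36.8 in IFN2000, 59.6 and 61.3 in Oxali, and 61.2 and 62.0 in Combo2000. Oxali libraries were above the others whether or not IFNγ was present, and the log2 interaction was −0.02 (SE 0.07, adjusted p = 0.934). Ifngr2 was at 4.44 to 5.56 CPM with the drug and at 0.893 to 1.34 without it, with a log2 interaction of 0.48 (SE 0.36, adjusted p = 0.550). The kinases had interactions of 0.08 (SE 0.06) for Jak1 and 0.06 (SE 0.05) for Jak2, neither of which was called.

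Transcription factors downstream were called. Irf9, a part of the complex that serves type I interferon, measured 8.29 and 8.01 CPM in Ctrl, 16.3 and 17.6 in IFN2000, 13.6 and 14.4 in Oxali, and 59.01 and 59.7 in Combo2000. Each agent alone was above Ctrl, and the combination was above all else. On the log2 scale its interaction was 1.03 (SE 0.12, edgeR adjusted p = 3.72e-05), and that of Stat2, another part of the same complex, was 0.93 (SE 0.09). Stat2 was not raised by IFNγ alone, at 24.5 and 24.2 CPM in Ctrl and 24.9 and 27.4 in IFN2000, and rose from 41.7 and 41.0 in Oxali to 81.5 and 87.3 in Combo2000. Stat3, which carries the response to interleukin 6, had a log2 interaction of 0.76 (SE 0.06).

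Irf1 stood at 38.6 and 37.0 CPM in Ctrl, 94.6 and 93.9 in IFN2000, 96.3 and 94.1 in Oxali, and 432 and 445 in Combo2000. Oxali alone thus brought it to about the level of IFN2000, and both together lay well above either. On the log2 scale the interaction was 0.88 (SE 0.07, edgeR adjusted p = 7.58e-08), and the linear one, 287 CPM (SE 8.96), was among the largest of all genes. Irf2, often an antagonist of IRF1, had a smaller interaction of 0.31 (SE 0.07, edgeR adjusted p = 0.0162). Of 8 interferon regulatory factors tested, Irf1, Irf2, Irf8 and Irf9 were called higher and 0 lower, with a median of 0.80. For this list and those that follow, 2.12% of all genes tested were called higher and 0.600% lower on the log2 scale. On the linear scale the shares were 3.19% and 1.35%. The lists were chosen with earlier results of these data known, so their counts describe them and test nothing.

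None of 11 inhibitors of the pathway was called on the log2 scale in edgeR (0 higher and 0 lower, 2 higher at an unadjusted p under 0.05, and 0 by DESeq2). Socs1, the inhibitor of JAK1 and JAK2 that IFNγ induces as feedback, was nearest. It measured 1.17 and 1.27 CPM in Ctrl, 2.61 and 3.30 in IFN2000, 2.35 and 2.48 in Oxali, and 11.6 and 12.03 in Combo2000. Combo2000 lies far above the other groups, and the log2 interaction was 1.01 (SE 0.30, adjusted p = 0.0774), while the linear one of 7.64 CPM was called (adjusted p = 4.38e-07). Socs3 (log2 0.05) and Ptpn2 (−0.14), further brakes on cytokine signalling, had small estimates, and over the list the median was 0.09. Usp18, which restrains the type I interferon receptor, had an imprecise log2 estimate of −0.06 (SE 0.39), and its linear interaction of 4.11 CPM was called (adjusted p = 4.12e-05).

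In the MHC-I pathway, B2m and a minority of the genes tested were called on the log2 scale. B2m encodes β2-microglobulin, the light chain of MHC-I, and measured 736 and 707 CPM in Ctrl, 817 and 769 in IFN2000, 892 and 897 in Oxali, and 1622 and 1702 in Combo2000. IFNγ added 71.5 CPM without the drug and 768 with it, the largest positive linear interaction among the genes called on that scale at 696 CPM (SE 39.0), and the log2 interaction was 0.76 (SE 0.05, edgeR adjusted p = 3.16e-08). H2-K1, a classical MHC-I heavy chain, was at 88.4 and 85.9 CPM in Ctrl, 114 and 104 in IFN2000, 105 and 99.3 in Oxali, and 250.2 and 251 in Combo2000. The 3 groups other than Combo2000 lie within a narrow band. Its log2 interaction was 0.97 (SE 0.07), that of H2-D1, the other classical chain, was 0.53 (SE 0.06), and that of H2-Q4, a nonclassical chain, was 1.15 (SE 0.21). With B2m these were the 4 called of 10 class I genes tested, beside 2.12% of all genes called higher. Of the 10, 0 were called lower, and the median was 0.71 over the 8 above the floor. H2 genes resemble each other, and reads shared between them may have been split or lost, so their values are uncertain.

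Of 15 genes that cut, carry and load MHC-I peptides, 6 were called higher and 0 lower, beside 2.12% and 0.600% of all genes. Tapbp, the tapasin that bridges the transporter and MHC-I, stood at 89.4 and 85.6 CPM in Ctrl, 149.5 and 149.1 in IFN2000, 204 and 197 in Oxali, and 506 and 510 in Combo2000. The 4 groups do not overlap, and the log2 interaction was 0.57 (SE 0.05, edgeR adjusted p = 2.07e-06). The others were Psmb10, an immunoproteasome subunit (log2 0.59), Erap1, which trims peptides (0.44), the tapasin relative Tapbpl (0.46), and the proteasome activator subunits Psme1 (0.33) and Psme2 (0.41).

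Members of the same list that IFNγ already raised strongly by itself were not called on the log2 scale. Psmb9, an immunoproteasome subunit, measured 0.389 and 0.203 CPM in Ctrl, 14.6 and 13.2 in IFN2000, 3.04 and 3.44 in Oxali, and 84.4 and 82.8 in Combo2000. Ctrl lay near the 0.167 and 0.152 CPM that 3 counts correspond to there, so the fold from Ctrl rests on few counts. As a fold, the IFNγ effect was 46.7 without the drug and 25.8 with it, a log2 interaction of −0.86 (SE 0.36, adjusted p = 0.255), yet the gain was 13.6 CPM without and 80.4 CPM with Oxali, a linear interaction of 66.8 CPM (SE 2.03, adjusted p = 7.76e-15). Psmb8, its partner subunit, was alike, with folds of 25.9 and 12 and gains of 5.42 and 35.6 CPM. The log2 interaction of Psmb8, −1.11 (SE 0.44), was not called either. Tap1, which forms the peptide transporter with Tap2, had a log2 interaction of 0.21 (adjusted p = 0.748) and a linear one of 59.7 CPM. The median over the list was 0.21 on the log2 scale, and 10 of the 15 were called higher and 1 lower on the linear scale. Psmb9 and Tap1 are neighbours on opposite strands, and whether counting used the strand is not given in the sources used here.

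The class II list held 0 calls of 5 genes in edgeR, 0 at an unadjusted p under 0.05 and 0 by DESeq2, and 3 of the 5 have a group at the floor. Cd74, the invariant chain that accompanies MHC class II, measured 0.111 and 0.051 CPM in Ctrl, 0.385 and 0.357 in IFN2000, 1.43 and 1.34 in Oxali, and 14.7 and 15.2 in Combo2000. Ctrl is at the floor of 3 counts, so its fitted interaction is no bound. The linear interaction of 13.2 CPM was called (SE 0.85, adjusted p = 8.17e-10), as was that of Ciita, the transactivator of class II genes, at 1.58 CPM (adjusted p = 0.00016).

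Guanylate binding proteins and immunity-related GTPases, which coat and disrupt the vacuoles of intracellular microbes, had large IFNγ effects with and without the drug. Gbp2 rose from 3.36 and 2.86 CPM in Oxali to 286 and 293 in Combo2000, 92.6-fold, and 32.0-fold from Ctrl to IFN2000. The log2 interaction was 1.54 (SE 0.30, edgeR adjusted p = 0.00827), and it was not called without Ctrl replicate 1 (adjusted p = 0.176) or Ctrl replicate 2 (0.0931). Gbp2 was the single member called of 11 on the log2 scale, while all 11 were called higher on the linear scale. Of these, 8 had a group at or under 3 counts, and the 3 above the floor had a median of 1.09.

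Irgm1, which regulates the other immunity-related GTPases, was well measured in all groups, at 61.4 and 58.6 CPM in Ctrl, 118 and 116 in IFN2000, 55.4 and 54.1 in Oxali, and 245 and 248 in Combo2000. Oxali alone did not raise it, and the log2 interaction was 1.21 (SE 0.06, edgeR adjusted p = 1.31e-09), with little movement between alternatives (1.16 to 1.23). Tgtp1, another of the family, had a log2 interaction of 1.056 (SE 0.13), and Igtp one of 0.85 (SE 0.21, edgeR adjusted p = 0.0289). Gm12250 was also called, but Oxali is at the floor and its fold is no bound. Of 11 such genes 4 were called higher and 0 lower on the log2 scale, and all 11 were called higher on the linear scale. Over all genes tested the shares called higher were 2.12% and 3.19%. Members of these GTPase families resemble each other closely, and the split of reads between them is uncertain.

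Of the 6 genes in the PARP and Dtx3l list, 5 were tested and all 5 were called higher, beside 2.12% of all genes. Earlier results of these data were known when the list was chosen, so the count is a description. DESeq2 called 4 of them higher, and the median was 0.92. Parp14, a mono-ADP-ribosyltransferase linked to STAT signalling, measured 17.1 and 15.5 CPM in Ctrl, 27.7 and 30.9 in IFN2000, 25.3 and 23.1 in Oxali, and 102 and 97.1 in Combo2000, with a log2 interaction of 1.195 (SE 0.10, edgeR adjusted p = 3.07e-07). Both single-agent groups lie above Ctrl and far below Combo2000. Dtx3l, the ubiquitin ligase partner of Parp9, had a log2 interaction of 0.92 (SE 0.08), Parp9 itself 0.70 (SE 0.07) and Parp10 0.38 (SE 0.09, edgeR adjusted p = 0.0317).

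Of 22 antiviral genes tested, 10 were called higher and 0 lower on the log2 scale, beside 2.12% and 0.600% of all genes. On the linear scale 20 were called higher, beside 3.19% of all genes. Bst2, or tetherin, which holds budding virus at the cell surface, stood at 67.9 and 65.5 CPM in Ctrl, 105.2 and 101.1 in IFN2000, 63.5 and 62.1 in Oxali, and 184 and 187 in Combo2000. Oxali alone was slightly below Ctrl, and the log2 interaction was 0.93 (SE 0.07, edgeR adjusted p = 5.81e-08). Herc6, a ubiquitin ligase that attaches the modifier ISG15, was not raised by IFNγ alone (7.23 and 6.99 CPM in Ctrl, 7.62 and 8.04 in IFN2000), and rose from 18.5 and 21.2 in Oxali to 43.1 and 46.8 in Combo2000, a log2 interaction of 1.04 (SE 0.15, edgeR adjusted p = 0.000294). Eif2ak2, the kinase PKR that senses double-stranded RNA, had a log2 interaction of 0.47, and Samhd1, which degrades deoxynucleotides, one of 0.38. The list's median was 0.48 over the 16 members above the floor.

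Of the other interferon targets, the chemokine Cxcl10, which draws T cells through CXCR3, had a log2 interaction of 3.22 (SE 0.80, edgeR adjusted p = 0.0329), from 0.223 and 0.101 CPM in Ctrl and 0.300 and 0.357 in IFN2000 to 0.829 and 0.954 in Oxali and 16.6 and 17.2 in Combo2000. It is thus a gene measured with few counts outside Combo2000. Cxcl9 and Cxcl11, which bind the same receptor, reached 3.45 and 3.75 CPM and 5.41 and 5.91 CPM in Combo2000 with every other group of this contrast at the floor, and all 3 were called on the linear scale. The other chemokines held 0 calls of 6 in edgeR (2 lower at an unadjusted p under 0.05, 0 by DESeq2), with a median of −0.35 over the 5 above the floor. On the linear scale Csf1, a macrophage growth factor held in the same list, was called higher (55.9 CPM, adjusted p = 1.97e-09) and Ccl9 lower (−15.2 CPM, adjusted p = 1.81e-05).

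In the interleukin 18, inflammasome and cell death list Mpeg1, Il18bp and Mlkl, the effector of necroptosis, were called higher of 10 tested, and 0 lower, with a median of 0.57. Mlkl had a log2 interaction of 0.35 (SE 0.08, edgeR adjusted p = 0.0175). Among 5 checkpoint ligands and costimulators Cd274 alone was called (0 lower), and the median was 0.23. Among 13 metabolic targets Xdh, Ido1 and Wars, the tryptophanyl-tRNA synthetase (log2 0.48, SE 0.06), were called higher and 0 lower, with a median of 0.72 over the 10 above the floor. C1ra was the single call among 5 complement genes.

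**Figure D3:**
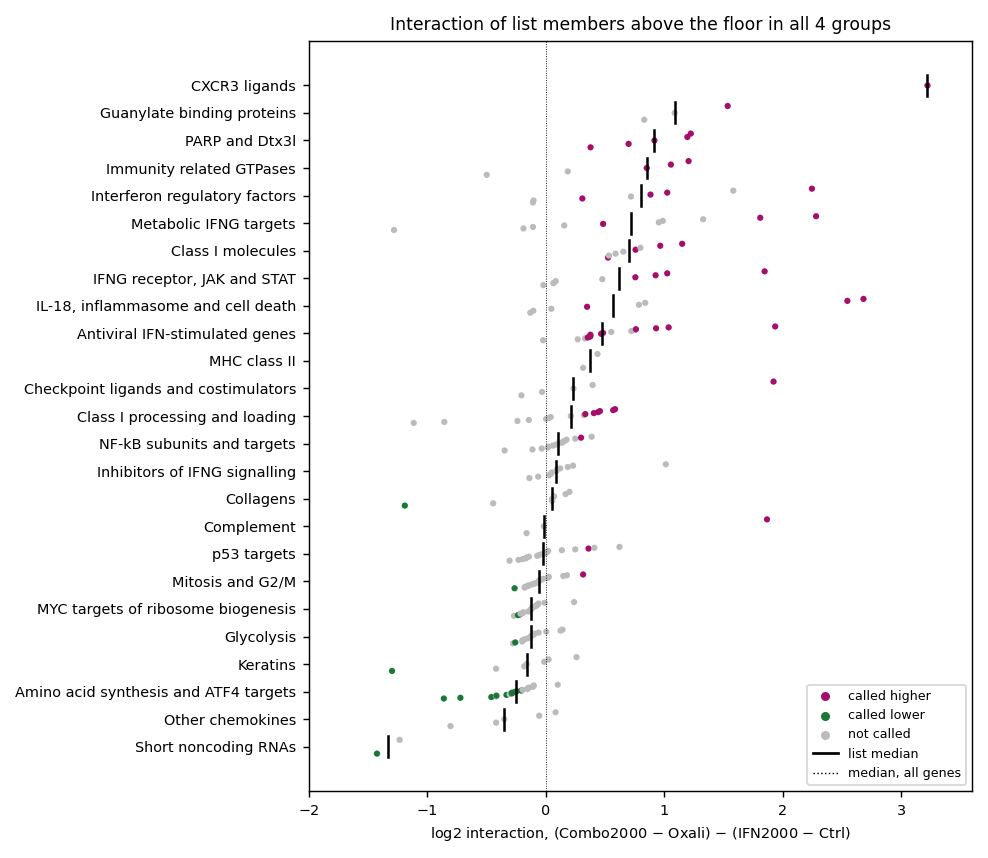
Log2 interaction (x axis) of the members of each gene list (rows) that lie above the floor in all 4 groups, with a line at each list's median and a dotted line at the median of all genes, 0.01; 40 of 277 list members have a group at the floor and are not drawn. The PARP and Dtx3l members lie to the right of the dotted line, with a median of 0.92, and the amino acid synthesis and ATF4 members lie mostly to its left, with a median of −0.25. The amino acid and glycolysis lists were drawn up after these values were seen, and the others with earlier results known, so their positions are descriptions.

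Of the 280 genes called higher, 163 fell with IFN2000 alone and did not rise with Oxali. Klhl24, a Kelch-like protein that serves as an adaptor for ubiquitin ligases, measured 27.5 and 22.9 CPM in Ctrl, 8.61 and 8.70 in IFN2000, 28.5 and 26.1 in Oxali, and 22.01 and 19.2 in Combo2000. IFN2000 is far below the other groups, and Combo2000 is below Oxali by a smaller step. On the log2 scale the interaction was 1.14 (SE 0.14, edgeR adjusted p = 3.61e-05).

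Mxd4, which pairs with MAX and opposes MYC, followed the same order within each pair of groups, with 38.6 and 32.9 CPM in Ctrl, 13.5 and 15.04 in IFN2000, 67.6 and 66.9 in Oxali, and 55.8 and 56.5 in Combo2000. Its log2 interaction was 1.06 (SE 0.11, edgeR adjusted p = 4.59e-06), but Mxd4 fell by 21.4 CPM without the drug and fell by 11.1 CPM with it, and the linear difference of 10.2 CPM (SE 3.07) was not called (adjusted p = 0.0655). Tcp11l2 stood at 30.4 and 22.8 CPM in Ctrl, 10.0 and 11.6 in IFN2000, 17.1 and 15.6 in Oxali, and 13.9 and 14.9 in Combo2000, a log2 interaction of 1.11 (SE 0.18, edgeR adjusted p = 0.00119). Here Oxali alone was also below Ctrl.

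Other members of this group, chosen after their values were seen, include the transcription factors Foxo4 and Foxo1, which growth factor signalling keeps out of the nucleus. Foxo4 had a log2 interaction of 0.61 (SE 0.08) and Foxo1 one of 0.27 (SE 0.07). Sesn3, a sestrin that restrains mTORC1, had 0.58 (SE 0.09), and Sesn1, the single gene called higher of 19 p53 targets, had 0.36 (SE 0.06). Txnip, which limits glucose uptake, had 0.41, Pdk4, which holds back pyruvate oxidation, had 0.42, and the autophagy genes Atg2a and Atg13 had 0.50 and 0.34. Each of these fell with IFN2000 alone, and none changed past the threshold from Oxali to Combo2000.

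The libraries also differed in a trend with transcript length. Across 9076 genes, the log2 ratio of each library to the Ctrl mean correlated with transcript length by a Spearman coefficient of −0.547 in IFN2000 replicate 2 and −0.297 in IFN2000 replicate 3, against −0.079 to 0.281 in the other 10 libraries. Median transcript length was 4946 bases in the 163 genes, 3453 in the 114 genes raised with Oxali, 2911 in the genes called lower and 3132 in all genes. With a per-library offset for length and GC content, 132 of the 163 and 111 of the 114 were still called higher, as were 77 of the 79 called lower. With that offset 53.9% of all calls were higher, against 78.0% in the analysis as reported and 59.0% with upper-quartile scaling. The offset raised the calls of lower genes to 274, and upper-quartile scaling gave 216 higher and 150 lower, against 280 and 79 as reported.

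The same group also depended on IFN2000 replicate 2. Without it 61 of the 163 were still called higher, and 67 genes met the definition of the group, whereas without IFN2000 replicate 3 there were 150 and 484. Of the 114 genes raised with Oxali, 88 were still called without IFN2000 replicate 2 and 109 without IFN2000 replicate 3. The part of RNA quality or of the length trend in the fall was not tested.

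**Figure D4:**
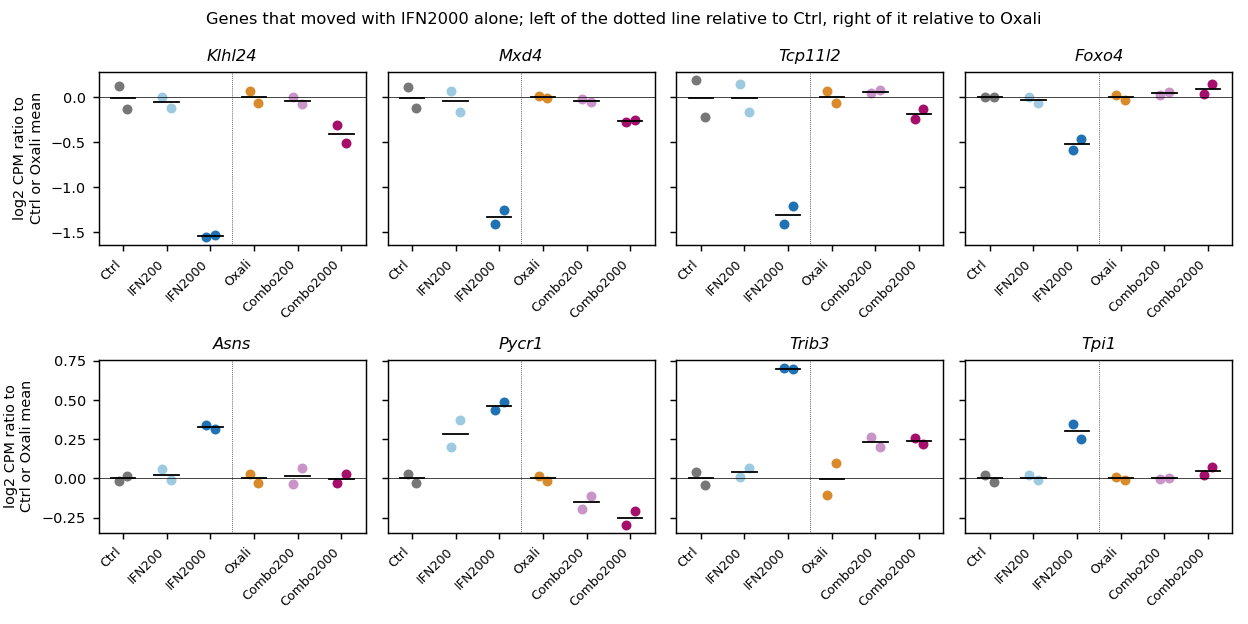
Log2 ratio of each of the 12 libraries to the mean of Ctrl (left of the dotted line) or of Oxali (right of it) for 4 genes that fell with IFN2000 alone (Klhl24, Mxd4, Tcp11l2, Foxo4) and 4 that rose with it alone (Asns, Pycr1, Trib3, Tpi1), with a point for each library and a bar at the group mean. The IFN2000 points leave 0 while the IFN200, Combo200 and Combo2000 points stay nearer to it, as for Klhl24, where IFN2000 fell by 1.54 on the log2 scale and Combo2000 by 0.40.

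A small set of 9 genes fell with IFN2000 alone and rose with it in the presence of Oxali. Grn, which encodes the growth factor progranulin, measured 676 and 655 CPM in Ctrl, 557 and 558 in IFN2000, 1090 and 1001 in Oxali, and 1214 and 1211 in Combo2000. The groups do not overlap, and the direction of the IFNγ effect turned, with a log2 interaction of 0.47 (SE 0.06, edgeR adjusted p = 3.14e-05) and 276 CPM on the linear scale. Samhd1 had the same pattern, at 438 and 405 CPM in Ctrl, 366 and 388 in IFN2000, 1070 and 1071 in Oxali, and 1240 and 1241 in Combo2000. Trim56, an antiviral ubiquitin ligase (log2 0.64), and Wrn, the helicase lost in Werner syndrome (log2 0.52), were further members, chosen after their values were seen.

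Among the 79 genes called lower, Bc1, a short cytoplasmic RNA without a protein product, had the largest negative interaction of those with enough counts. It stood at 1.11 and 1.82 CPM in Ctrl, 3.17 and 3.48 in IFN2000, 4.70 and 3.48 in Oxali, and 3.08 and 3.79 in Combo2000, a log2 interaction of −1.42 (SE 0.31, edgeR adjusted p = 0.0156). The groups other than Ctrl overlap. The call was lost without Ctrl replicate 1 (−1.14, adjusted p = 0.163), Oxali replicate 1 (−1.19, 0.1) or Combo2000 replicate 2 (−1.27, 0.0894).

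Krt79, a keratin, was the single member of its list of 8 called lower, with 4.51 and 5.73 CPM in Ctrl, 6.98 and 6.83 in IFN2000, 1.80 and 2.00 in Oxali, and 1.07 and 0.991 in Combo2000. IFNγ raised it without the drug and lowered it with the drug, a log2 interaction of −1.30 (SE 0.27, edgeR adjusted p = 0.0113) that was lost without Oxali replicate 2 (adjusted p = 0.0697). Col16a1, a fibril-associated collagen, had −1.19 (SE 0.31, edgeR adjusted p = 0.0442) and lost its call in 10 of 21 alternatives, DESeq2 (adjusted p = 0.0690) and the removal of Ctrl replicate 1 (0.250), Ctrl replicate 2 (0.134) or IFN2000 replicate 2 (0.153) among them. Lgr6, a receptor for R-spondins, had −0.68, Rpl23a, a ribosomal protein with many processed copies in the genome, −0.68, and Twist2, a transcription factor of mesenchymal cells, −0.56. Each lost its call without at least 4 of the 12 libraries, Lgr6 without Ctrl replicate 1 (adjusted p = 0.225), IFN2000 replicate 2 (0.0596), Oxali replicate 2 (0.0648) or Combo2000 replicate 3 (0.0520).

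Pycr1 and Asns, enzymes of amino acid synthesis, were also called lower. Pycr1, which makes proline, measured 11.96 and 11.5 CPM in Ctrl, 15.9 and 16.5 in IFN2000, 4.70 and 4.58 in Oxali, and 3.78 and 4.01 in Combo2000. IFN2000 lies above Ctrl, Combo2000 lies below Oxali, and the log2 interaction was −0.72 (SE 0.16, edgeR adjusted p = 0.0169), lost without Ctrl replicate 2 (adjusted p = 0.0565), Oxali replicate 1 (0.0758) or 2 (0.0571), Combo2000 replicate 2 (0.0959) and by DESeq2 (0.0670). Asns, asparagine synthetase, stood at 335 and 343 CPM in Ctrl, 429.5 and 421 in IFN2000, 139 and 134 in Oxali, and 134 and 139 in Combo2000. It rose with IFNγ alone by 86.7 CPM and with Oxali it stayed where the drug had put it, a log2 interaction of −0.33 (SE 0.06, edgeR adjusted p = 0.00359).

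A list of 20 amino acid synthesis genes and targets of ATF4, the transcription factor of the amino acid response, was drawn up after these values were seen and is given as a description. It held 10 genes called lower and 0 called higher, and 14 called lower on the linear scale. Over all genes tested the shares called lower were 0.600% and 1.35%. Besides those named, Aldh1l2 (log2 −0.86) and Mthfd2 (−0.29), both of mitochondrial folate metabolism, Psph, the last step to serine (−0.29), Slc7a5, a transporter of large neutral amino acids (−0.25), Trib3 (−0.46) and Atf4 itself (−0.21) were called. Atf4 measured 393 and 392 CPM in Ctrl, 459.6 and 453 in IFN2000, 255.2 and 254.7 in Oxali, and 253 and 261 in Combo2000, so that the drug lowered it and IFNγ raised it only without the drug. The calls of Aldh1l2 were lost without Ctrl replicate 2, either Oxali library or Combo2000 replicate 2 (−0.69 to −0.88, adjusted p from 0.0605 to 0.123).

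Glycolysis genes, a list likewise drawn up after the values were seen, held 1 call of 15 on the log2 scale, Tpi1, which interconverts triose phosphates (−0.26, SE 0.05, edgeR adjusted p = 0.00855), and 7 called lower on the linear scale. Tpi1 measured 928 and 901 CPM in Ctrl, 1165 and 1090 in IFN2000, 471 and 463 in Oxali, and 473 and 490 in Combo2000. It lost its call without Ctrl replicate 2 (adjusted p = 0.0565), Oxali replicate 1 (0.0508) or Combo2000 replicate 2 (0.0632). Of 20 MYC targets of ribosome biogenesis 2 were called lower, Nolc1 (−0.23) and Odc1, the rate-limiting enzyme of polyamine synthesis (−0.22), and 0 higher, with a median of −0.12. Of 20 mitotic genes, Birc5, or survivin, was called lower (−0.26) and Cenpe, a kinetochore motor, was called higher (0.32), and of 17 NF-κB genes edgeR called Tnip1, an inhibitor of that pathway, higher (0.30) and 0 lower. Tnip1 is one of the genes that fell with IFN2000 alone, and DESeq2 called 0 of the list higher and 1 lower. Over all genes tested edgeR called 2.12% higher and 0.600% lower on the log2 scale.

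On the linear scale 421 genes were called higher (3.19%) and 178 lower (1.35%). Both scales called 220 genes higher and 68 lower, and 0 genes were called in opposite directions. The linear scale alone called 201 higher, 181 of them with a positive log2 interaction and 20 with a negative one, while the log2 scale alone called 60 higher and 11 lower. Linear counts moved with the same libraries, to 771 higher and 630 lower without IFN2000 replicate 3, 232 and 51 without Ctrl replicate 1, 233 and 67 without Combo2000 replicate 2, and 260 higher without Ctrl replicate 2. The genes called lower came to 81 without IFN2000 replicate 2, 88 without Oxali replicate 1, and 103 and 111 without Combo200 replicates 2 and 3.

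In all 20 genes that the linear scale called higher against a negative log2 estimate, the Oxali mean lay above the Ctrl mean. A larger gain at a smaller fold requires a higher starting level, so that order follows from how the 20 were chosen. The change from Ctrl to Oxali was called for 19 of them. Besides Psmb9 and Psmb8 they include Ifi47, an immunity-related GTPase, with an IFNγ effect of 12.4-fold and 7.94 CPM alone and 8.79-fold and 22.1 CPM with Oxali. The secreted lectin-binding protein Lgals3bp had folds of 3.73 and 3.6 and gains of 6.39 and 28.4 CPM, and the complement component C3 had folds of 1.57 and 1.55 and gains of 1.54 and 23.8 CPM. For these the fold was about the same or smaller with the drug while the gain in CPM was larger. None of the 20 negative log2 estimates was itself called. Of the 20, 13 had a group at or under 3 counts.

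**Figure D5:**
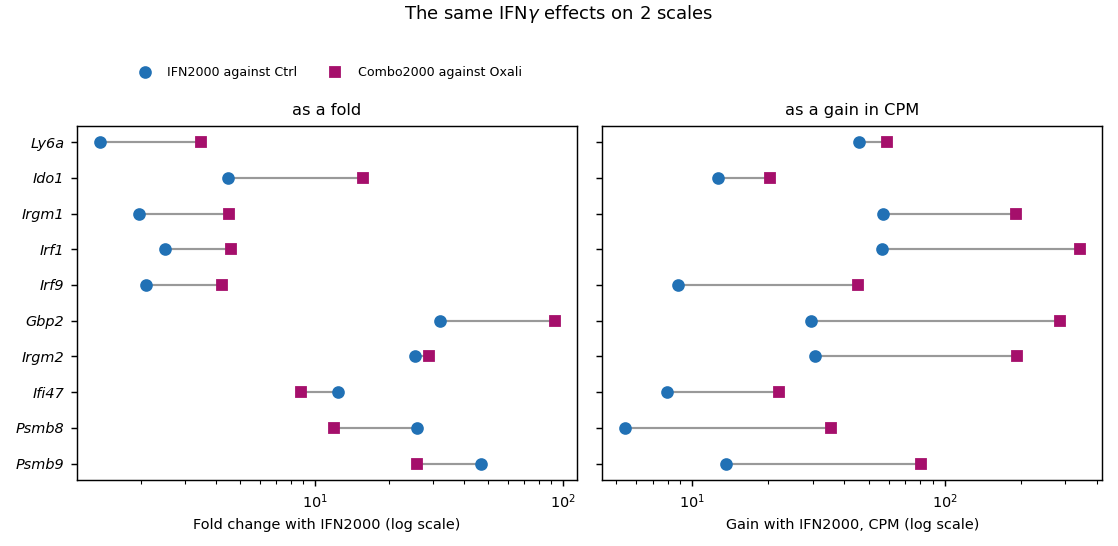
IFN2000 effect of 10 genes without Oxali (circles) and with it (squares), as a fold change (left, log axis) and as a gain in CPM (right, log axis). On the right every square lies to the right of its circle, whereas on the left the order turns for Ifi47, Psmb8 and Psmb9, as for Psmb9 with folds of 46.7 and 25.8 and gains of 13.6 and 80.4 CPM. The log2 interactions of Ifi47, Psmb8 and Psmb9 were not called.

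Among genes called on that scale, after B2m came Eef2, translation elongation factor 2, at 4769 and 4648 CPM in Ctrl, 4160 and 4248 in IFN2000, 2740 and 2590 in Oxali, and 2599 and 2719 in Combo2000. With IFNγ it fell by 505 CPM without the drug, and the difference with the drug was −6.32 CPM, a linear interaction of 498 CPM (SE 116, adjusted p = 0.0150), but the log2 interaction of 0.16 was not called (adjusted p = 0.0696). Irf1, Grn (276 CPM) and Gbp2 (256 CPM) followed. At the other end were Ldha, lactate dehydrogenase, at −381 CPM, the glycolytic enzyme Aldoa at −284 CPM, Tpi1 at −199 CPM, the chaperone Hspa8 at −189 CPM and the tubulin Tubb5 at −184 CPM, of which Tpi1 alone was called on the log2 scale.

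Whether the interaction depended on the dose of IFNγ was tested as the change from Combo200 to Combo2000 minus the change from IFN200 to IFN2000, in which Ctrl and Oxali cancel. It was called higher at 2000 pg for 448 genes (3.40%) and lower for 420 (3.19%). At 200 pg the interaction itself was called for 0.698% of genes. That interaction uses the same Ctrl and Oxali libraries, so its values are set beside those at 2000 pg without a test of likeness. In the 114 genes raised with Oxali the median log2 interaction was 0.56 at 2000 pg and 0.37 at 200 pg, and 45 were called higher at 200 pg. In the 163 that fell alone the medians were 0.32 and 0.02, and 0 were called at 200 pg in edgeR (12 higher and 2 lower at an unadjusted p under 0.05, and 0 by DESeq2). The dose difference shares its IFN2000 and Combo2000 libraries with the interaction that defined these groups, so its calls among them only describe them. It was called higher for 121 of the 163, and for 41 of the 114 with 9 called lower. In the genes called lower the medians were −0.33 and −0.07, and 40 of the 79 were called lower in the dose difference.

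These counts of the dose difference depended on many libraries. Without IFN2000 replicate 3 there were 949 called higher and 980 lower, without IFN200 replicate 1, the library with 265 heart muscle marker counts, 62 and 48, without Combo200 replicate 3 there were 86 and 47, and without Combo2000 replicate 2 there were 117 and 84. Without IFN2000 replicate 2 they were 155 and 154, without Combo200 replicate 2 158 and 124, without Ctrl replicate 1 276 and 268, and without Ctrl replicate 2 275 and 267.

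Xdh showed the largest rise of the interaction with dose among genes with enough counts. At 200 pg it measured 4.25 and 4.86 CPM in IFN200 and 11.5 and 10.6 in Combo200, beside 3.30 and 3.35 in IFN2000 and 17.97 and 20.4 in Combo2000. IFNγ without the drug left it near Ctrl at both doses, and the log2 interaction was 1.03 at 200 pg and 2.28 at 2000 pg, a difference of 1.25 (SE 0.20, edgeR adjusted p = 0.00139). Mpeg1 went from 2.03 to 2.68, a difference of 0.65 (SE 0.17, edgeR adjusted p = 0.0322), and B2m from 0.39 to 0.76, a difference of 0.37 (SE 0.05, edgeR adjusted p = 0.000492). The differences of Klhl24 (1.13), Mxd4 (1.07) and Tcp11l2 (1.05) follow from IFN200 libraries close to Ctrl, as Klhl24 shows with 25.3 and 23.2 CPM in IFN200 and 27.2 and 25.8 in Combo200. Gm19221, a predicted gene at 2.36 to 4.69 CPM, had 1.07. Its log2 interactions, −0.785 at 200 pg and 0.285 at 2000 pg, were called at neither dose.

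Some immunity-related GTPases had smaller log2 interactions at the high dose, whereas Gm12250 of the same list had a larger one (a difference of 1.59, edgeR adjusted p = 0.0444, with Oxali at the floor) and that of Irgm1 (−0.14) was not called. Without the drug Igtp went from 2.00 and 1.98 CPM in Ctrl to 5.43 and 3.76 at 200 pg and 51.3 and 52.4 at 2000 pg. With the drug it went from 5.07 and 5.44 CPM to 76.8 and 81.1 at 200 pg and 247 and 246 at 2000 pg. Its level with Oxali and the low dose was above that with the high dose alone. The log2 interaction was 2.703 at 200 pg and 0.85 at 2000 pg, a difference of −1.85 (SE 0.11, edgeR adjusted p = 4.45e-09). Irgm2 had a difference of −1.91 (SE 0.11), Ifi47 one of −1.76 (SE 0.21) and Iigp1 one of −2.32 (SE 0.36), although Iigp1 has Ctrl and Oxali at the floor. Gm7862, a predicted gene, had −1.58 (SE 0.44), from log2 interactions of 1.488 at 200 pg and −0.087 at 2000 pg. The interaction itself was called at neither dose for Gm7862, Ifi47 and Iigp1. Irf1 also had a smaller log2 interaction at the high dose, with a difference of −0.29 (SE 0.06, edgeR adjusted p = 0.0110).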

How the data were processed

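RNA-seq counts per gene in 12 libraries of Myc-CaP cells were analysed, and groups were taken from the library titles. The authors deposited raw read counts, whole numbers, in a table with 1 row per gene symbol and 1 column per library, and no other column. The submitters' processing notes name STAR 2.7.3a and RSEM 1.3.0, while the study's methods describe STAR alignment to GRCm38 with GENCODE gene models and counting by featureCounts. Counts as deposited hold no correction for length or composition, and genes that overlap or resemble each other may share reads. Of 55216 genes, 28300 had no count. Counting error follows the totals of 18749975 to 25931516 counts per library.

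Counts were scaled by TMM and filtered by filterByExpr (minimum count 10, minimum total count 15). A model with a mean for each of the 6 groups was fitted to all 12 libraries, and contrasts were tested two-sided in R 4.3.3 with edgeR 4.0.16 (quasi-likelihood test), with Benjamini-Hochberg adjustment over the 13177 genes tested and a threshold of 0.05. SE is the log2 estimate divided by the root of the F statistic. The linear interaction is the same contrast of fitted group means in CPM, with a delta-method SE and a Wald test, adjusted in the same way. Values given per library are CPM on TMM-scaled totals. A group with both libraries at or under 3 counts was treated as at the floor, and medians of lists leave such genes out. Scripts were tested on simulated counts.

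The members of the contrast and the gene lists were chosen with earlier results of these data known, and the lists for glycolysis and for amino acid synthesis and ATF4 targets after the values were seen. Named genes were Mpeg1, Il18bp, Xdh and Irf8, the 12 largest positive and 8 largest negative log2 interactions among called genes whose mean log2 CPM was 1 or more, the 5 largest called linear interactions in each direction, Ifngr1, Ifngr2, Jak1, Jak2, Irf1 and Socs1, up to 4 called members of each list by adjusted p, and the 5 largest dose differences in each direction. Other genes were named after their values were seen, and some genes that the rule selects are not reported here.

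Alternatives were DESeq2 1.42.0, limma 3.58.1 on CPM, other scalings and filters, the 8 libraries alone, a replicate block, an offset for transcript length and GC content, and leaving out each library. Promoter windows came from RefSeq (GRCm38.p6) by symbol, and transcript lengths from GENCODE models on the same build, found for 13043 of the genes tested. Libraries of the same group differed by more than counting noise (chi-square per degree of freedom 1.71 to 9.15), so none was a copy of another.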

Additional observations from a re-analysis of the deposited data

Results flagged for a closer look

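The effect of Oxali on the response to IFNγ differed between the doses, by the edgeR test of the difference itself, for the genes that follow. It was larger at 2000 pg for Xdh, by 1.25 on the log2 scale, for Klhl24 by 1.13, for Gm19221 by 1.07, for Mxd4 by 1.07 and for Tcp11l2 by 1.05. It was smaller at 2000 pg for Iigp1, with a difference of −2.32, for Irgm2 with −1.91, for Igtp with −1.85, for Ifi47 with −1.76 and for Gm7862 with −1.58. These are the 5 largest in each direction of 448 and 420 genes called, so their sizes were selected, and Iigp1 has groups at the floor. For Gm19221, Gm7862, Ifi47 and Iigp1 the interaction itself was called at neither dose. Klhl24, Mxd4 and Tcp11l2 are among the 163 genes that fell with IFN2000 alone and did not rise with Oxali. Their log2 interactions at 200 pg were 0.01, −0.006 and 0.053. As a group the 163 depended on IFN2000 replicate 2, and the part of the length trend in their fall was not tested. Without that library the log2 interactions at 2000 pg were 1.121 for Klhl24, 0.975 for Mxd4 and 0.997 for Tcp11l2.

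Markers of other cell types, most of which had too few counts to enter the tests, were found above their level in the controls. Library IFN2000 replicate 2 held 498 counts over the T cell markers, against 17 and 22 in Ctrl and 26 in the other IFN2000 library. T cell markers also summed to 62 to 117 counts in the 6 libraries with Oxali, highest in Combo200 replicate 3, which held Gzmb at 7 and Ifng at 9. Library IFN200 replicate 1 held 265 counts over the heart muscle markers, against 22 and 31 in Ctrl and 31 in the other IFN200 library. Heart muscle markers also summed to 95 to 145 counts in the 6 libraries with Oxali, most of it from Tnnt2 alone, at 68 to 125 counts. The part of either in the results was not tested.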

How the results depend on the processing

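On the log2 scale the genes called higher (280) came to 626 with no filter on low counts and 159 with DESeq2. Those called lower (79) came to 150 with upper-quartile scaling, 159 with no filter, 274 with the length and GC offset and 45 with only the 8 libraries. On the linear scale 421 higher became 703 with no filter, and 178 lower became 328 with upper-quartile scaling, 272 with RLE scaling, 295 with no filter, 446 with the offset and 118 with only the 8 libraries. The dose difference, called higher for 448, came to 733 with no filter and 279 with DESeq2. The cause of these changes was not tested, apart from the smaller number of libraries in the fit with only 8.

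Leaving out each library in turn, which also leaves 1 library in a group and assumes that it varies like the others, gave ranges of 90 to 636 higher and 12 to 399 lower on the log2 scale, 232 to 771 and 51 to 630 on the linear scale, and 62 to 949 and 47 to 980 for the dose difference. The group raised with Oxali (114) ranged from 91 to 136 and the group that fell alone (163) from 67 to 484 over the 2 IFN2000 libraries. These ranges for the groups, and their values with the offset, 134 and 174, were computed after seeing the data.

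With the replicate block the log2 interaction gave 216 higher and 50 lower, the dose difference 139 and 97, and the linear interaction by limma on CPM 354 and 112. Of 21 pairs of libraries with the same number, 0 deviated together by a correlation over 0.1 (−0.046 to 0.045). Taken over all genes with 2 libraries per group, these correlations cannot decide whether a number marks a batch that touches some genes.

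For 35 named genes and 21 alternatives each, 657 of 735 values kept their direction and side of the threshold, 58 lost the call, 18 gained it and 2 changed sign. Both changes of sign were Ifngr1, not called in any fit, which ranged from −0.092 (without Ctrl replicate 2) to 0.021 (without Ctrl replicate 1) and stood at 0.002 without Oxali replicate 2. Of the 35, 15 kept both in every alternative.

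Genes under about 3 counts per library have no usable fold, and 443 of the genes tested had a group there. With 2 libraries per group, the calls rest on the shared spread.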
